A study of Rattus norvegicus with 12 samples.

Results

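The enzymes described here build the sulfated glycosaminoglycans. They were chosen by annotation and not by their values: a gene was a member where its deposited pathway terms held one that begins with "Glycosaminoglycan biosynthesis". Of the 22601 genes in the table, 7679 had a pathway term and 55 were members. The chondroitin and dermatan sulfate term held 21 of them, the heparan sulfate term 25 and the keratan sulfate term 14. The 5 genes shared by the chondroitin and heparan terms make the common linker and were kept as a class of their own, so that each gene counts once: 5 linker, 16 chondroitin, 20 heparan and 14 keratan genes.

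The samples were RNA from a bone defect in the distal femur of Sprague Dawley rats, taken 2 weeks after surgery, with 3 libraries in each of 4 groups. The control group had a defect with no scaffold, and every group carried the same defect. The hydrogel group received a scaffold of gelatin methacryloyl, the PCL group one of polycaprolactone, a slowly degrading polyester, and the TCP group one of β-tricalcium phosphate, a calcium phosphate ceramic. The study's methods speak of independent samples in its groups, but neither they nor the labels tie each library to a rat, so the spread behind each p-value is that among these libraries and may be technical.

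As background, glycosaminoglycans are long sugar chains attached to core proteins such as aggrecan, perlecan or lumican. Chondroitin and heparan chains both start on a linker of xylose, galactose and glucuronic acid. Chondroitin is then extended with N-acetylgalactosamine and heparan with N-acetylglucosamine, and sulfotransferases and epimerases decorate both as they grow. Keratan sulfate has no such linker and is a sulfated chain of galactose and N-acetylglucosamine carried by other glycans. Chondroitin sulfate gives cartilage its water-holding matrix, and heparan sulfate on cell surfaces and in basement membranes binds growth factors. Because bulk tissue was sequenced, fewer cells of a type and less RNA per cell cannot be told apart.

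Levels are given in FPKM, fragment counts corrected for the length of a gene and the depth of a library, so that genes can be compared with each other. The depth recovered from the FPKM was 15035925 to 17357830 fragments per library. A pair of features of the libraries touch the results below. Osteoblast markers, which define bone-forming tissue, were abundant in every library, with a summed FPKM of 6192 to 25578 for 8 genes. Control replicate 3 stood apart from the other control libraries, with a summed FPKM of 8 chondrocyte markers of 12016 against 1829 and 1873. Its sum of 5 fibroblast markers was also higher, 5781 against 1748 and 3071. Its sums of neutrophil, B cell and erythroid markers were lower, at 19.4, 7.78 and 1120. The other controls had 1092 and 1503 for neutrophil, 165 and 334 for B cell and 9036 and 16994 for erythroid markers. TCP replicates 2 and 3 were much closer to each other than any other pair of 1 group, with a chi-square of their fragments of 2.19 per gene against 32.0 to 319.9 for the other pairs. A value of about 1 would be sampling noise alone, so they were kept as separate libraries, and counts of calls are also given with this pair averaged as 1 library. The median log2 difference of all 12633 genes tested was 0.14 in hydrogel against control, so medians there are also given relative to it, whereas in the other comparisons it was between -0.06 and 0.04.

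Against the control group, few of these enzymes changed, and those that fell belonged to different chains. Chst5, a keratan sulfotransferase, and Extl1, a member of the exostosin family of heparan polymerases, were lower in PCL and in TCP. Ext1, the catalytic heparan copolymerase, was higher in TCP. The genes that polymerise chondroitin had lower means in every scaffold group, but none of them passed the adjusted test. Of the 55 members, 43 reached at least 1 FPKM in at least 3 libraries and were tested: 5 linker, 15 chondroitin, 10 heparan and 13 keratan genes. Chst5 passed this filter through the control libraries alone, where it was high, so that its entry among the 43 rests on the same difference as its calls, and counts that include it are a description. The other 42 reached 1 FPKM in libraries of all 4 groups.

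In hydrogel against control, limma called 0 of the 43 members at an adjusted p under 0.05, beside 0.00792% of all genes, and limma-voom on recovered fragments also called 0. At an unadjusted p under 0.05 there were 11 members, all lower in hydrogel, beside 15.0% of all genes. At the study's own threshold, an unadjusted p under 0.05 with a fold over 2 or under 0.5, there were 2 members, beside 2.29% of all genes. Here and below, this fold is that of the fitted difference in log2(FPKM + 1), which can fall short of the ratio of mean FPKM. Chpf, Chsy3 and Extl1 passed the unadjusted p in hydrogel with ratios of 0.471, 0.383 and 0.404, yet were not counted. The same held for Chst3 in PCL (0.482) and TCP (0.440). These counts therefore need not match the study's own. In PCL against control, 2 members were called at the adjusted p (0.277% of all genes), 15 at the unadjusted p (18.4%) and 3 at the study's threshold (3.64%), and with limma-voom the adjusted count was 0. In TCP against control these counts were 3 (4.78%), 10 (18.0%) and 2 (3.51%), and limma-voom also called 3. With TCP replicates 2 and 3 averaged, the adjusted counts in PCL and in TCP against control were 0.

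Between the scaffolds, TCP against hydrogel held the most calls, among the members as among all genes. In PCL against hydrogel, limma called 0 of the 43 members at the adjusted p, beside 0.103% of all genes, as did limma-voom, with 5 at the unadjusted p (8.23% of all genes) and 0 at the study's threshold (0.768%). In TCP against hydrogel, 5 members were called at the adjusted p (6.13% of all genes), all higher in TCP, with 16 at the unadjusted p (34.4%) and 1 at the study's threshold (8.38%). In TCP against PCL, 1 member was called (0.657%), with 10 at the unadjusted p (22.4%) and 0 at the study's threshold (4.48%). limma-voom called 5 members in TCP against hydrogel and 1 in TCP against PCL. No call of the TCP comparisons held with TCP replicates 2 and 3 averaged, where the adjusted p of Ext1 was 0.0564 against hydrogel and 0.0909 against control.

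**Figure D1:**
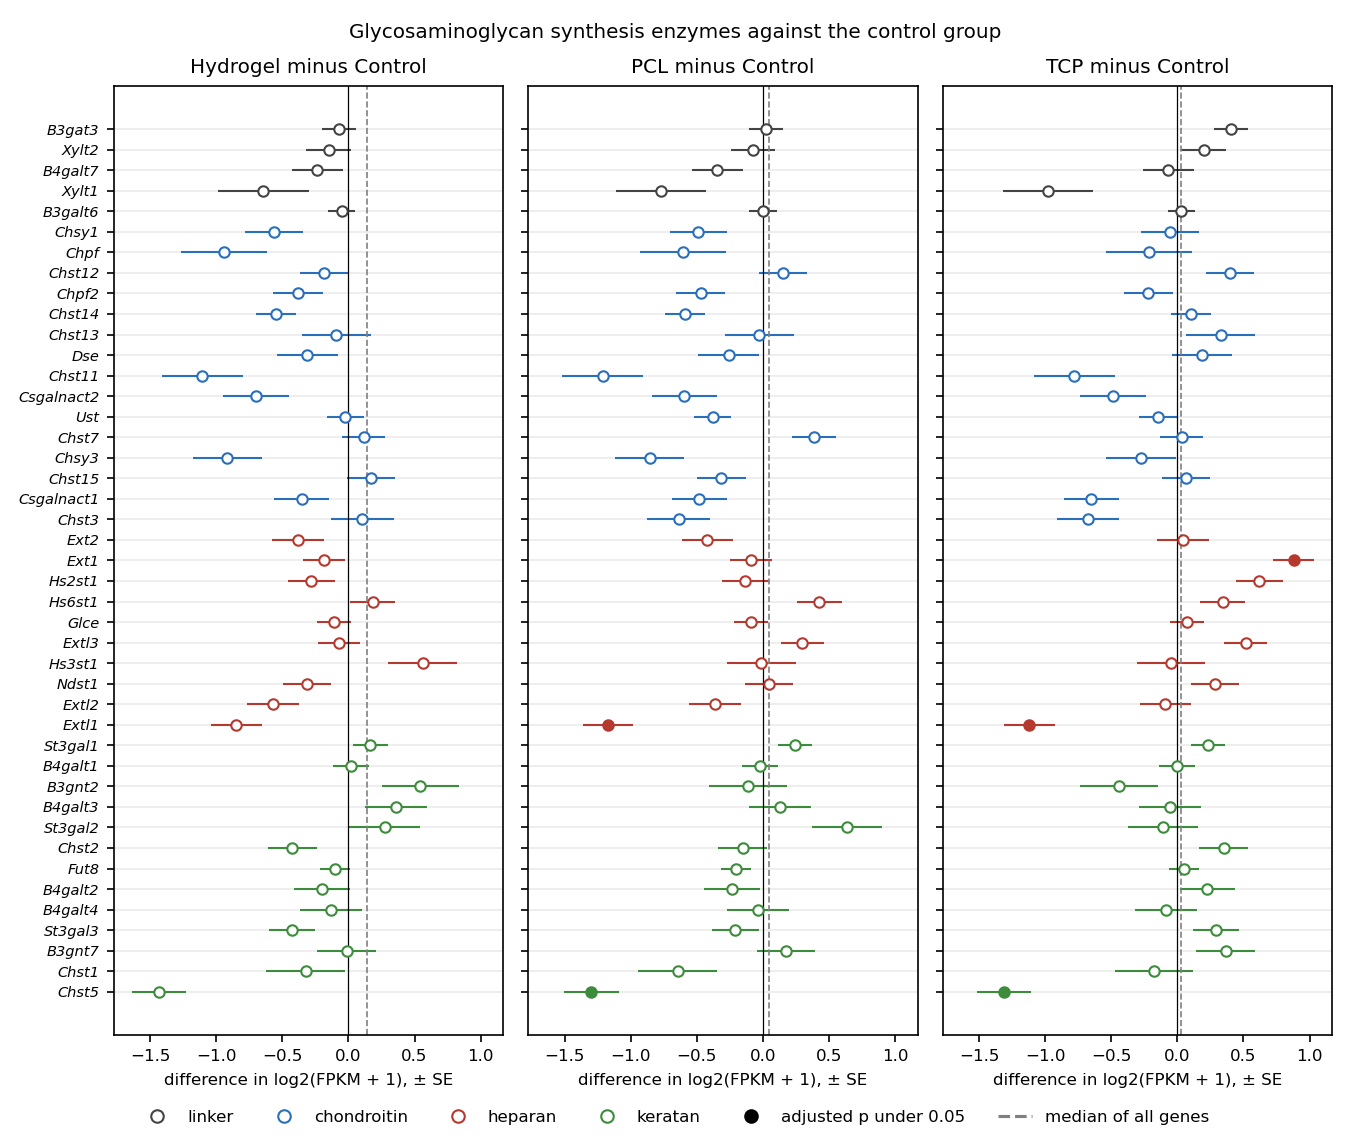
Difference in log2(FPKM + 1) between each scaffold group and the control group for the 43 enzymes tested, with SE as bars. Colours mark the class, filled points an adjusted p under 0.05 (limma), and the dashed line the median of all genes tested. The filled points are Chst5 and Extl1 below 0 in PCL and TCP, and Ext1 above 0 in TCP.

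Of the 5 linker enzymes, limma called 0 in any comparison with control, as did limma-voom. At the unadjusted p there were 0, 1 and 2 in hydrogel, PCL and TCP, beside 15.0%, 18.4% and 18.0% of all genes. These were Xylt1, lower in PCL and TCP, and B3gat3, higher in TCP. B3gat3, the glucuronyltransferase that completes the linker, had 42.7, 35.5 and 42.7 FPKM in the control libraries, 39.7, 43.0 and 32.4 in hydrogel, 41.1, 44.9 and 36.9 in PCL and 54.9, 52.3 and 53.6 in TCP. Its TCP libraries were all above those of the other groups, by 0.41 ± 0.13 (SE) on the log2 scale against control, which passed the unadjusted threshold but not the adjusted one (limma adjusted p = 0.101). Xylt2, a xylosyltransferase that starts the chain, had 18.9, 14.1 and 19.5 FPKM in the control libraries, 16.8, 17.8 and 12.4 in hydrogel, 17.6, 18.3 and 13.6 in PCL and 20.9, 19.8 and 19.3 in TCP. Its groups overlapped between control and every scaffold. The other xylosyltransferase, Xylt1, was at 27.8 FPKM in control replicate 3 and between 6.04 and 11.98 in the other 11 libraries. B4galt7 and B3galt6, which add the galactose units, had means of 11.3 and 4.62 FPKM over the 12 libraries. The median log2 difference of the 5 linker genes was -0.15 in hydrogel, -0.07 in PCL and 0.03 in TCP against control. Relative to the median of all genes, that in hydrogel was -0.29.

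The 6 genes that start and extend the chondroitin chain were lower on average in all 3 scaffold groups, though none passed the adjusted test. Chsy1, a chondroitin synthase, had 30.6, 26.2 and 50.3 FPKM in the control libraries, 22.9, 27.5 and 19.0 in hydrogel, 24.4, 27.0 and 21.4 in PCL and 31.2, 34.4 and 33.4 in TCP. Chpf, the chondroitin polymerising factor that works with the synthases, had 31.1, 21.2 and 62.1 FPKM in the control libraries, 17.2, 23.4 and 13.3 in hydrogel, 26.6, 21.8 and 19.3 in PCL and 27.8, 30.9 and 30.4 in TCP. Both were highest in control replicate 3 and lowest in hydrogel replicate 3, and control replicate 2 overlapped with the scaffold groups. The differences from control were -0.94 ± 0.32 (SE) in hydrogel, -0.61 ± 0.32 in PCL and -0.21 ± 0.32 in TCP for Chpf on the log2 scale, with adjusted p = 0.312, 0.339 and 0.813 (limma). Chsy3 and Chpf2, the other synthase family members, and Csgalnact1 and Csgalnact2, which add the initial N-acetylgalactosamine, also had lower means than control in each scaffold group. At the unadjusted p, 4 of the 6 were lower in hydrogel, 5 in PCL and 1 in TCP, beside 15.0%, 18.4% and 18.0% of all genes in either direction, and limma called 0 of them at the adjusted p, as did limma-voom. The 6 had a median log2 difference of -0.63, -0.54 and -0.25 against control in hydrogel, PCL and TCP. Relative to the median of all genes, that in hydrogel was -0.78.

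These differences moved with 1 library. In control replicate 3, 13 of the 15 chondroitin genes were above the mean of control replicates 1 and 2, with a median ratio of 1.40, and 5 were over 2 times higher. The same library was above the mean of the other controls for 6 of 10 heparan genes, for 8 of 13 keratan genes and for 29.9% of all genes tested. Without it, all 6 chain-building genes were still lower in hydrogel and in PCL, with medians of -0.32 and -0.23, and 3 and 1 of them passed the unadjusted p, but in TCP 3 were lower and 3 higher, with a median of -0.02. The summed FPKM of the chondrocyte markers was also highest in control replicate 3. This sum was 1829 to 12016 in control and 53.0 to 727 in the 9 scaffold libraries. Control replicates 1 and 2 were thus also above every scaffold library. Of the 8 markers, 7 were tested and all 7 passed the study's threshold as lower in each scaffold group, with 0, 0 and 5 at limma's adjusted p in hydrogel, PCL and TCP, 0, 0 and 1 with limma-voom and 0 in each with TCP replicates 2 and 3 averaged. Matn1, the marker not tested, was at most 0.292 FPKM in every library. The part of these cells in the chondroitin results was not tested.

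**Figure D2:**
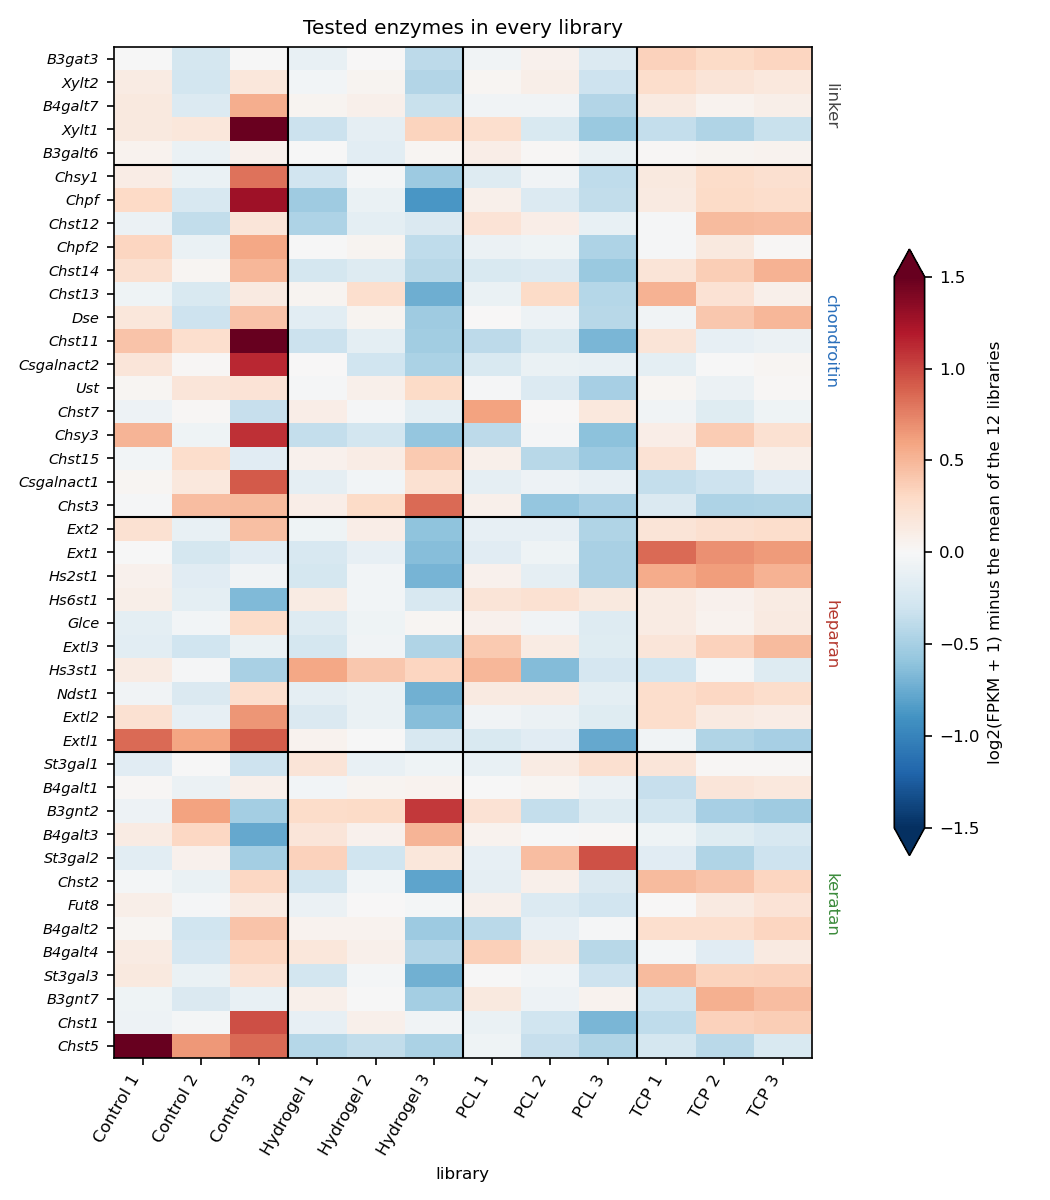
log2(FPKM + 1) of the 43 enzymes tested in each of the 12 libraries, minus the mean of the 12, with classes separated by horizontal lines and groups by vertical lines, red for above and blue for below the mean. Control replicate 3 was the highest library for 15 of the 43 genes, beside 14.4% of all genes tested. Hydrogel replicate 3 was the lowest for 19 of the 43, beside 2148 of all 12633 genes.

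Among the sulfotransferases and the epimerase that modify chondroitin and dermatan chains, Chst11 and Chst14 were below control in every hydrogel and PCL library, without an adjusted call. Chst11, a chondroitin 4-O-sulfotransferase of growth cartilage, had 11.00, 9.65 and 26.7 FPKM in the control libraries, 6.14, 7.04 and 5.19 in hydrogel, 5.80, 6.59 and 4.53 in PCL and 9.16, 7.21 and 7.42 in TCP. All control libraries were above all 9 scaffold libraries, and control replicate 3 was far above the other controls. Chst11 was 2.58 times lower in hydrogel, 2.80 times lower in PCL and 1.99 times lower in TCP by the means, or -1.11 ± 0.31, -1.21 ± 0.31 and -0.78 ± 0.31 (SE) on the log2 scale. It passed the study's threshold in hydrogel and PCL, with no adjusted call (limma adjusted p = 0.312, 0.119 and 0.198), and without control replicate 3 the differences were -0.67, -0.78 and -0.35.

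The other 4-O-sulfotransferases were Chst12, Chst13 and Chst14, and no difference between genes was tested. Chst12 had 12.8, 10.4 and 15.7 FPKM in the control libraries, 9.63, 12.3 and 11.6 in hydrogel, 15.9, 14.7 and 12.6 in PCL and 13.5, 19.4 and 19.3 in TCP. It was lowest in hydrogel replicate 1 and highest in TCP replicate 2, and its difference from control was 0.40 ± 0.18 in TCP (limma adjusted p = 0.285). Chst13 averaged between 8.99 and 11.9 FPKM in the 4 groups. Chst14, the 4-O-sulfotransferase of dermatan sulfate, had 12.1, 10.3 and 14.7 FPKM in the control libraries, 8.23, 8.67 and 7.30 in hydrogel, 8.40, 8.62 and 6.50 in PCL and 11.7, 13.2 and 14.9 in TCP. The hydrogel and PCL libraries lay below all control and TCP libraries, whose ranges overlapped. Chst14 rose by 0.65 ± 0.15 (SE) on the log2 scale in TCP against hydrogel, 1.64-fold by the means (limma adjusted p = 0.0360), a call lost with no filter, under the replicate block and in 8 of the 12 fits that leave out 1 library. Against control it differed by -0.55 ± 0.15 in hydrogel and -0.59 ± 0.15 in PCL, both past the unadjusted threshold but not the adjusted one (0.312 and 0.127).

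Chst3, the chondroitin 6-O-sulfotransferase, had group means of 2.11 ± 0.569 FPKM (SD, n = 3) in control, 2.39 ± 0.963 in hydrogel, 1.02 ± 0.523 in PCL and 0.927 ± 0.188 in TCP. It differed from control in TCP by -0.68 ± 0.24 on the log2 scale, past the unadjusted threshold only, and hydrogel replicate 3 was its highest library. Chst7, another 6-O-sulfotransferase, Chst15, which adds a further sulfate to an already sulfated unit, and Ust, the uronyl 2-O-sulfotransferase, had means of 2.63, 2.51 and 2.84 FPKM over the 12 libraries. Dse, the epimerase that turns chondroitin into dermatan, averaged 9.11 FPKM. None of these 5 was called by limma at the adjusted p. In PCL against control, Chst7 passed the unadjusted p as higher (0.39), and Chst3 (-0.64) and Ust (-0.38) passed it as lower.

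The promoters of 4 members whose levels set groups apart are shown. Chst5, Extl1 and Chst11 were lower in every scaffold library than in every control library. Of these, Chst5 and Extl1 were called lower in PCL and TCP. Hs2st1 was called higher in TCP against hydrogel. Each promoter is the RefSeq window of 250 bases before to 50 bases after the start, in build GRCr8, written 5′ to 3′ along the gene. Chst5 lies at chr19:56790223-56790522, minus strand, Extl1 at chr5:151872781-151873080, minus strand, Chst11 at chr7:22630392-22630691, minus strand and Hs2st1 at chr2:236302084-236302383, minus strand. Both strands were searched and capitals mark a match. The GC box was searched as GGGCGG. The CCAAT box is spelled by its own name. The TATA box was searched as TATAAA. A motif of SOX factors was searched as AACAAT.
Chst5: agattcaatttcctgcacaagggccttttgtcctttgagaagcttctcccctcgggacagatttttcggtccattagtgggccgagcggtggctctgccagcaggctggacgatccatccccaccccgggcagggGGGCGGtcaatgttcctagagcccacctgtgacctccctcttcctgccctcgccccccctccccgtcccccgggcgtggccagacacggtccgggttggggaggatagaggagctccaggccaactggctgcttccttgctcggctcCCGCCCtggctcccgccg
Extl1: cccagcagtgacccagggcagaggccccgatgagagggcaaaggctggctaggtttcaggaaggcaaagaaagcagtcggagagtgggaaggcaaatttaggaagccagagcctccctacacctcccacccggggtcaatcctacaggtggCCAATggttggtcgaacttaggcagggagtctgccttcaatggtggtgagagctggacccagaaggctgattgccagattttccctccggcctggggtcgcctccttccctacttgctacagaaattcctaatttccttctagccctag
Chst11: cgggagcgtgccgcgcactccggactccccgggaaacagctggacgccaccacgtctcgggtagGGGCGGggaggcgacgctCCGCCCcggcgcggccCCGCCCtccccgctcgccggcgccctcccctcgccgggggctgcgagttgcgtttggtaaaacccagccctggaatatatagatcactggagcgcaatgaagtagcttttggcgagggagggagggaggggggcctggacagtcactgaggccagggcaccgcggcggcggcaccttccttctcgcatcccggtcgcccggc
Hs2st1: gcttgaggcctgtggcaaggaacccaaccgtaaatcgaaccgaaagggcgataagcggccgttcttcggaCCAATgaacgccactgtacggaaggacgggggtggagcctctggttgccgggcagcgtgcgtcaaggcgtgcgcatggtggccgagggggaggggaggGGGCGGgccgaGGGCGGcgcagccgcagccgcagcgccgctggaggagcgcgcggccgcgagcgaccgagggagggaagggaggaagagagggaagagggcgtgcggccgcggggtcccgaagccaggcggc

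The Chst5 window held 2 GC boxes, 1 on each strand, and that of Chst11 held 3. The Extl1 window held 1 CCAAT box, 99 bases before the start, and no GC box. The Hs2st1 window held 2 GC boxes and 1 CCAAT box. No 2 of these matches overlapped. A promoter window was matched by symbol for 43 of the 55 members, and 34 of these were among the genes tested. Of the 43, 58.1% held a GC box, 25.6% a CCAAT box, 4.65% a TATA box and 0 the SOX motif, against 33.1%, 37.5%, 14.2% and 11.7% of all 33469 windows of the same length. The median GC content was 65.3% in the members and 51.7% in all windows. All windows were not limited to the genes tested, and no share was taken for the other genes tested. These shares therefore do not set the members against other expressed genes. These matches describe letters only and draw nothing about binding. Members without a window were B3galt6, Chst1, Chst14, Chsy3l, Csgalnact1, Csgalnact2, Ext1, Ext2, Extl3, NEWGENE_1304700, Ndst3 and St3gal1.

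Among the heparan polymerases, 1 was called higher and 1 was called lower. Ext1, the copolymerase that extends the heparan chain, had 28.0, 23.3 and 24.9 FPKM in the control libraries, 23.8, 25.9 and 17.8 in hydrogel, 25.0, 26.9 and 19.9 in PCL and 51.8, 46.2 and 44.7 in TCP. The lowest TCP library stood at 44.7 and the highest of the 9 others at 28.0 FPKM, so TCP did not overlap with any group. Ext1 rose in TCP by 0.88 ± 0.16 (SE) on the log2 scale against control, 1.87-fold by the means (limma adjusted p = 0.0184), by 1.06 ± 0.16 against hydrogel (2.12-fold, adjusted p = 0.01001) and by 0.97 ± 0.16 against PCL (1.99-fold, adjusted p = 0.0346). Without TCP replicate 2 or 3 all 3 calls were lost, that against control also without control replicate 2, and that against PCL also without control replicate 1, hydrogel replicate 1, TCP replicate 1 or any PCL library. Its partner Ext2 was not called higher, with 42.5, 33.2 and 49.5 FPKM in the control libraries, 34.4, 38.5 and 23.3 in hydrogel, 32.9, 33.1 and 26.1 in PCL and 41.1, 42.6 and 43.5 in TCP. The Ext2 ranges of TCP and control overlapped, and the difference was 0.04 ± 0.19 (limma adjusted p = 0.945). All TCP libraries of Ext2 were above those of hydrogel and PCL. These differences were 0.42 ± 0.19 and 0.46 ± 0.19 (adjusted p = 0.151 and 0.201), that against PCL past the unadjusted p.

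Extl1, an exostosin-like glycosyltransferase of low level, moved the other way. It had 3.10, 2.43 and 3.28 FPKM in the control libraries, 1.36, 1.26 and 0.929 in hydrogel, 0.943, 1.03 and 0.340 in PCL and 1.19, 0.659 and 0.611 in TCP, from 124 to 180 recovered fragments in control and 19 to 76 elsewhere. Every control library was above every scaffold library. Extl1 fell by 1.17 ± 0.19 (SE) on the log2 scale in PCL (limma adjusted p = 0.0358) and by 1.12 ± 0.19 in TCP (adjusted p = 0.0160), and was 3.81 and 3.58 times lower there by the means. In hydrogel the difference was -0.85 ± 0.19 with adjusted p = 0.306, 2.48 times lower by the means. The call in PCL was lost without any 1 library other than TCP replicate 1, and that in TCP without TCP replicate 2 or 3. Whether the differences differ between the scaffolds was tested between the scaffold groups directly, with no call (adjusted p = 0.643 for PCL against hydrogel, 0.312 for TCP against hydrogel and 0.887 for TCP against PCL). Extl3, which starts the heparan chain, averaged 7.08 ± 0.587 FPKM (SD, n = 3) in control, 6.73 ± 1.07 in hydrogel, 9.04 ± 1.96 in PCL and 10.6 ± 1.19 in TCP, and Extl2 averaged 2.99 FPKM over the 12 libraries. Of the 5 exostosin genes, 2 were thus called in TCP against control, in opposite directions, beside 4.78% of all genes. Extl3 was also higher there by 0.52 ± 0.16 (SE), past the unadjusted p only (limma adjusted p = 0.101). Its TCP libraries were all above the control ones.

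Among the heparan modifiers, Hs2st1, the uronyl 2-O-sulfotransferase of heparan, had 27.0, 22.7 and 24.8 FPKM in the control libraries, 21.2, 24.9 and 15.5 in hydrogel, 27.0, 23.3 and 18.1 in PCL and 38.4, 40.1 and 37.2 in TCP. The TCP libraries were above all others, which overlapped among themselves. Hs2st1 rose by 0.90 ± 0.18 (SE) in TCP against hydrogel (1.88-fold by the means, limma adjusted p = 0.0205). This call was lost without hydrogel replicate 1 or 3 or TCP replicate 2 or 3. Its differences of 0.62 ± 0.18 against control and 0.75 ± 0.18 against PCL did not pass, with adjusted p = 0.0773 and 0.0865. Hs6st1, a 6-O-sulfotransferase, had 16.1, 13.5 and 9.16 FPKM in the control libraries, 16.5, 14.5 and 12.6 in hydrogel, 17.3, 17.7 and 16.8 in PCL and 16.4, 15.8 and 16.5 in TCP. Its lowest library was control replicate 3, its PCL libraries were all above the control ones, and the difference there was 0.43 ± 0.17 (adjusted p = 0.240). Ndst1, which exchanges the acetyl group of glucosamine for a sulfate, averaged 5.56 ± 1.45 FPKM in hydrogel and 8.76 ± 0.190 in TCP (SD, n = 3). Glce, the epimerase, averaged 8.61 FPKM over all libraries and Hs3st1, a 3-O-sulfotransferase, 7.54, with its 3 hydrogel libraries (9.30 to 11.4 FPKM) above the control ones (4.91 to 7.97).

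Markers of several cell types moved in the same comparisons as the rises in TCP. The summed FPKM of 5 osteoclast markers was 9238 to 9422 in TCP, 3341 to 5459 in control, 2236 to 5072 in hydrogel and 3271 to 4787 in PCL, and that of 5 macrophage markers was 803 to 1070 in TCP and 311 to 664 in the other groups. Of the 4 osteoclast markers tested, 2 were called higher in TCP against control, 3 against hydrogel and 1 against PCL. With TCP replicates 2 and 3 averaged these counts were 0. In TCP against hydrogel the markers of neutrophils, B cells and erythroid cells had median log2 differences of -2.89, -2.48 and -1.93, with 3 of 5, 3 of 4 and 1 of 5 past the study's threshold as lower and no adjusted call, and in TCP against PCL the erythroid median was -2.08. Dcstamp, the osteoclast marker not tested, was at most 0.0464 FPKM. The part of these cells in the levels of Ext1, Hs2st1 and the other members that rose in TCP was not tested.

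**Figure D3:**
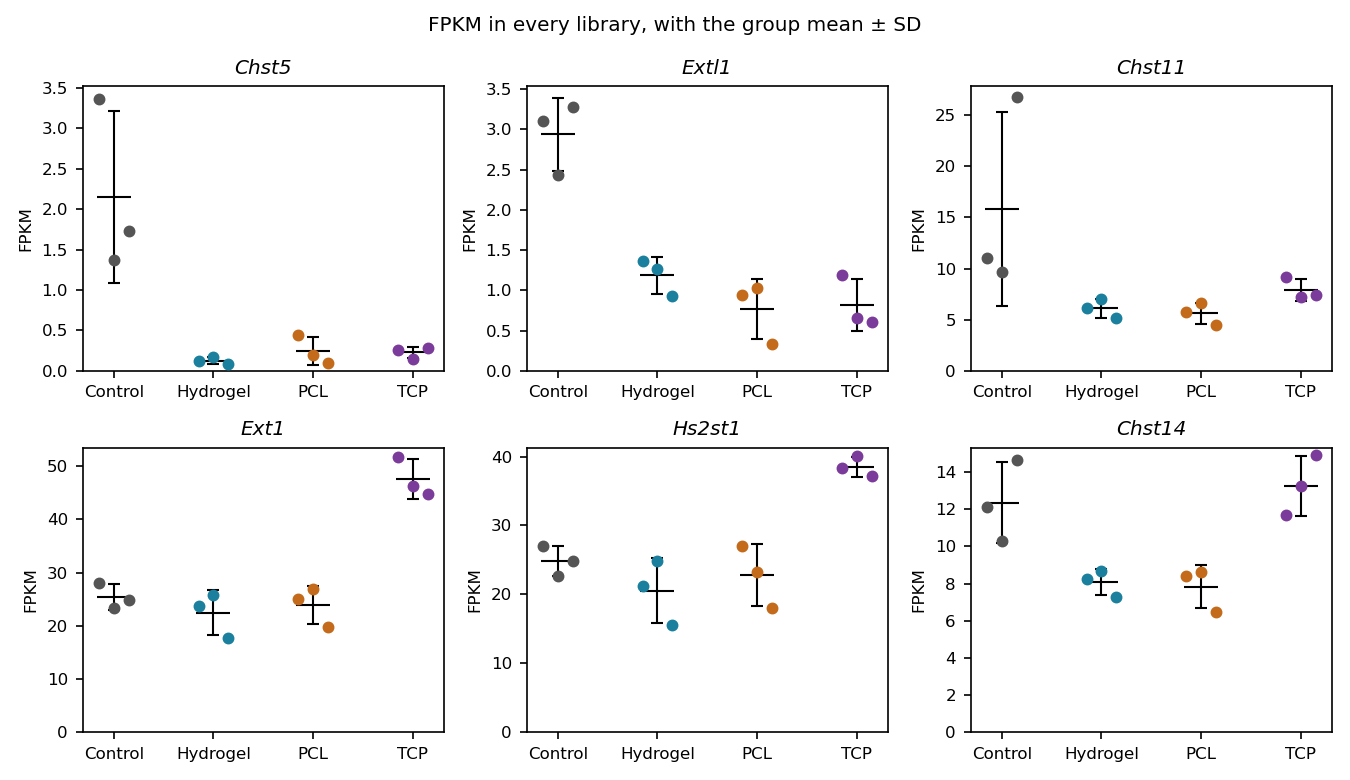
FPKM of 6 enzymes in every library, with the group mean and SD (n = 3) as a bar with whiskers and a y axis that starts at 0. Chst5, Extl1 and Chst11 were higher in the 3 control libraries than in the 9 others, Ext1 and Hs2st1 higher in the 3 TCP libraries, and Chst14 lower in hydrogel and PCL.

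The largest ratio of group means among the tested members was that of a keratan gene. Chst5, which sulfates the N-acetylglucosamine of keratan sulfate, had 3.36, 1.37 and 1.73 FPKM in the control libraries, 0.121, 0.170 and 0.0891 in hydrogel, 0.441, 0.193 and 0.101 in PCL and 0.256, 0.145 and 0.284 in TCP, from 62 to 153 recovered fragments in control and 4 to 22 elsewhere. Every scaffold library was below every control library, and control replicate 1 was the highest library. By the means Chst5 was 17.0 times lower in hydrogel, 8.78 times lower in PCL and 9.43 times lower in TCP. It fell by 1.30 ± 0.21 (SE) on the log2(FPKM + 1) scale in PCL (limma adjusted p = 0.0338) and by 1.31 ± 0.21 in TCP (adjusted p = 0.0137). With no filter on low values, where its entry no longer rests on the control libraries, Chst5 was also called in PCL and TCP (adjusted p = 0.0397 and 0.0140). The hydrogel difference of -1.43 ± 0.21 had adjusted p = 0.0988, and without control replicate 1 it passed (adjusted p = 0.0479). This scale understates the change of a gene so low: limma-voom gave -3.90, -3.21 and -3.12, with adjusted p = 0.304, 0.0867 and 0.0216. The call in PCL was lost without any 1 of the hydrogel or PCL libraries or without TCP replicate 2 or 3, and that in TCP without TCP replicate 2 or 3. Without control replicate 3, Chst5 differed by -1.51, -1.38 and -1.39 and Extl1 by -0.78, -1.11 and -1.06 in hydrogel, PCL and TCP. Both genes lay above the scaffold groups in the same libraries as the chondrocyte markers. Within the controls, the summed FPKM of these markers was 12016 in replicate 3 against 1829 and 1873 in the others. Chst5 was instead highest in control replicate 1, with 3.36 FPKM, and had 1.73 in control replicate 3. Extl1 was only a little higher in control replicate 3, with 3.28 FPKM against 3.10 and 2.43. The part of chondrocytes in both genes was not tested.

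Chst2, another sulfotransferase of N-acetylglucosamine, rose in TCP against hydrogel by 0.78 ± 0.19 (SE) on the log2 scale (1.74-fold by the means, limma adjusted p = 0.0380), from 10.9, 13.0 and 7.34 to 19.0, 18.3 and 17.0 FPKM. It had 13.1, 12.4 and 16.8 FPKM in control and 12.1, 14.1 and 11.3 in PCL, so that TCP lay above all other libraries. St3gal3, a sialyltransferase that caps galactose, rose by 0.72 ± 0.17 (1.87-fold, adjusted p = 0.0402) and had 3.83, 3.10 and 4.08 FPKM in the control libraries, 2.62, 3.29 and 1.66 in hydrogel, 3.35, 3.27 and 2.52 in PCL and 5.07, 4.51 and 4.55 in TCP. For both, hydrogel replicate 3 was the lowest library. Both calls were lost with no filter, under the replicate block and in 8 of the 12 fits that leave out 1 library. Without hydrogel replicate 3, 1 of the 43 members was called in TCP against hydrogel, beside 0.902% of all genes.

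The keratan genes of highest level had no adjusted call. St3gal1, another sialyltransferase, had 23.9, 26.9 and 21.6 FPKM in the control libraries, 30.9, 24.9 and 25.7 in hydrogel, 24.8, 29.5 and 31.9 in PCL and 30.8, 27.2 and 27.3 in TCP, and only TCP, whose lowest library stood at 27.2, was above all control libraries, whose highest stood at 26.9. B4galt1, a galactosyltransferase with many other glycan targets, had 27.1, 25.3 and 28.3 FPKM in the control libraries, 26.1, 27.7 and 27.8 in hydrogel, 26.7, 27.3 and 25.2 in PCL and 20.9, 30.6 and 30.0 in TCP. Its groups overlapped in all 6 comparisons, with differences of -0.04 to 0.02. B3gnt2, which adds N-acetylglucosamine, was at 43.5 FPKM in hydrogel replicate 3 and 13.7 to 31.3 in the others. St3gal2 was highest in PCL replicate 3, with 32.5 FPKM. Chst1, which sulfates galactose, was at 6.58 FPKM in control replicate 3 and 1.42 to 3.99 elsewhere. B4galt2, B4galt3, B4galt4, B3gnt7 and Fut8, a fucosyltransferase, had means of 7.18, 19.0, 3.68, 3.45 and 12.01 FPKM. The median log2 difference of the 13 keratan genes was -0.10 in hydrogel, -0.11 in PCL and -0.0019 in TCP.

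The 12 members not tested were low in every group. Ndst2, Ndst4, Hs3st2, Hs6st3 and Chst4 had at most 2 recovered fragments in any library. Hs3st5 and Chsy3l had at most 4. Hs6st2, Hs3st3a1, Hs3st3b1 and Ndst3 had means of 0.569, 0.509, 0.525 and 0.244 FPKM over the 12 libraries, and NEWGENE_1304700 had 0.484. The deposited descriptions of NEWGENE_1304700 and Ndst2 both name N-deacetylase/N-sulfotransferase 2, so the level of that enzyme is uncertain. Chsy3 and Chsy3l, and Hs3st3a1 and Hs3st3b1, are close copies whose fragments may be split between them, so their values are uncertain. The heparan genes tested held 1 for N-sulfation (Ndst1), 1 for 2-O-sulfation (Hs2st1), 1 for 6-O-sulfation (Hs6st1) and 1 for 3-O-sulfation (Hs3st1). Of the 16 chondroitin genes, 15 were tested.

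Summed over each class, the chondroitin genes exceeded the heparan genes in the 3 control libraries and in none of the 9 others. The chondroitin sum was 158, 129 and 252 FPKM in the control libraries, 116, 134 and 99.6 in hydrogel, 133, 130 and 104 in PCL and 149.8, 164 and 164 in TCP. The control range overlapped with those of all scaffold groups. The heparan sum was 153, 128 and 151 in control, 134, 143 and 101 in hydrogel, 147, 136 and 112 in PCL and 188, 187 and 184 in TCP, so that TCP was above every other library. The mean heparan sum was 186 in TCP and 144 in control. Most of this difference came from Ext1, with means of 47.6 and 25.4 FPKM, and Hs2st1, with 38.5 and 24.8. The keratan sum stayed between 145 and 175 in all 12 libraries. The ratio of the chondroitin to the heparan sum was 1.03, 1.01 and 1.67 in control, 0.871, 0.936 and 0.982 in hydrogel, 0.905, 0.959 and 0.930 in PCL and 0.798, 0.878 and 0.889 in TCP. The 3 control libraries lay above the 9 others, control replicates 1 and 2 by little. These sums weigh genes by their level and are given as a description with no test.

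**Figure D4:**
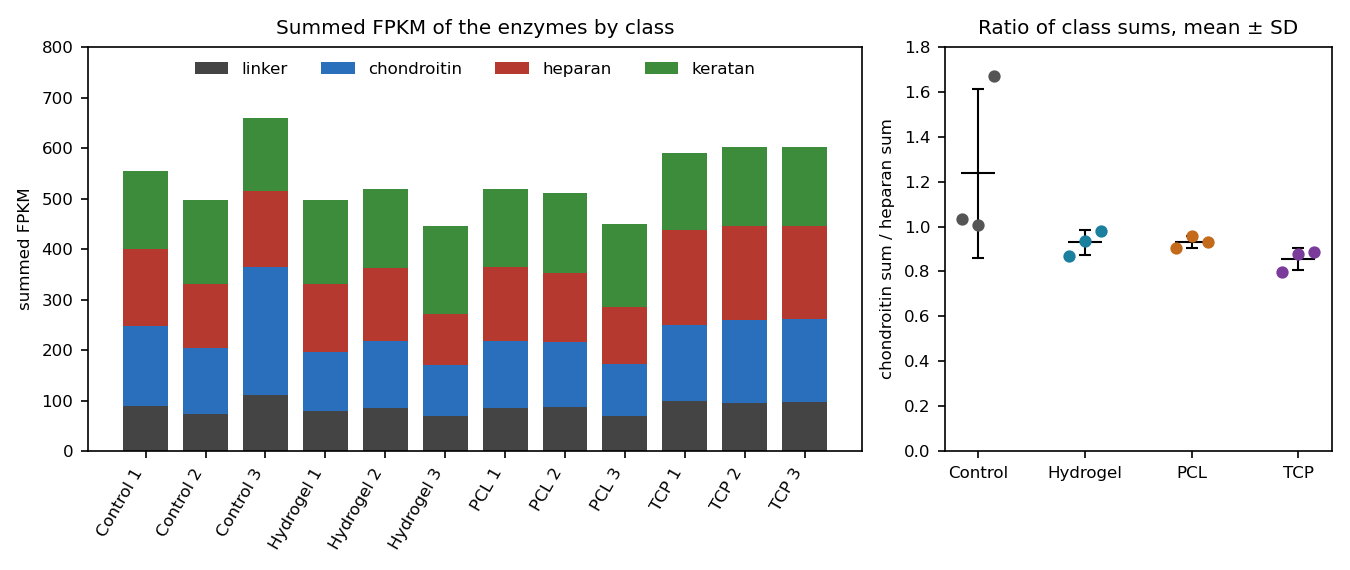
Left, summed FPKM of the 55 enzymes by class in each library, as stacked bars. Right, the ratio of the chondroitin sum to the heparan sum in each library, with the group mean and SD (n = 3). The ratio was 1.01 to 1.67 in control and 0.798 to 0.982 in the scaffold libraries, and the heparan sum was 184 to 188 FPKM in TCP.

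Per gene rather than by level, the median log2 difference against control was -0.35 for the 15 chondroitin, -0.23 for the 10 heparan and -0.10 for the 13 keratan genes in hydrogel, or -0.50, -0.38 and -0.24 relative to the median of all genes. In PCL these medians were -0.48, -0.09 and -0.11 beside 0.04 for all genes. In TCP they were -0.15, 0.18 and -0.0019 beside 0.03. Without control replicate 3, the chondroitin medians were -0.14, -0.25 and -0.03 and the heparan ones -0.19, -0.12 and 0.18. The medians of all genes without that library were 0.03, -0.06 and -0.04. The heparan genes of TCP exceeded those of hydrogel by a median of 0.45 and the chondroitin ones by 0.33, which were 0.28 and 0.13 without hydrogel replicate 3. Libraries of the 2 groups did not overlap for 7 of 43 members in hydrogel against control (15.1% of all genes), 10 in PCL (18.2%) and 14 in TCP (22.9%). The share was 5 of 43 in PCL against hydrogel (20.5%), 24 in TCP against hydrogel (57.6%) and 22 in TCP against PCL (44.9%).

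The genes around these enzymes were described from lists of the same pathway. Of 19 genes in the table that supply sulfate and sugar nucleotides, 17 were tested. Among them limma called 0 at the adjusted p in every comparison, as did limma-voom. At the unadjusted p, 4, 7 and 2 were lower and 0, 0 and 1 higher in hydrogel, PCL and TCP against control. The shares of all genes there were 15.0%, 18.4% and 18.0% in either direction. Papss2, which makes the sulfate donor, had 25.1, 17.9 and 77.3 FPKM in the control libraries, 11.9, 14.2 and 9.80 in hydrogel, 14.8, 14.7 and 10.1 in PCL and 22.4, 19.0 and 20.05 in TCP, and passed the study's threshold in hydrogel and PCL with adjusted p = 0.312 and 0.192. Of 8 tested core proteins that carry chondroitin or dermatan chains, Acan was called in TCP and 0 were called in the other comparisons with control. Acan, which encodes aggrecan, had 151, 118 and 811 FPKM in the control libraries, 11.6, 18.2 and 37.7 in hydrogel, 23.7, 22.1 and 14.6 in PCL and 49.5, 18.6 and 19.5 in TCP, with a difference of -3.17 ± 0.69 (SE) in TCP (limma adjusted p = 0.0316), and is itself one of the chondrocyte markers. Cspg4, another core protein, passed the study's threshold in hydrogel and PCL, by -1.34 ± 0.37 and -1.15 ± 0.37 (adjusted p = 0.312 and 0.185). Of 5 tested keratan core proteins, Fmod, which encodes fibromodulin, fell in TCP by 2.05 ± 0.51 (adjusted p = 0.0475), and Prelp, in the same list, differed by -2.03 ± 0.51 (adjusted p = 0.0507). Kera, which encodes keratocan, fell in TCP against hydrogel by 1.41 ± 0.35 (adjusted p = 0.0424).

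Heparan core proteins and breakdown enzymes held calls in the other direction, in TCP. Of 12 heparan cores tested, 6 were lower in hydrogel and 4 in PCL against control at the unadjusted p. The shares of all genes there were 15.0% and 18.4% in either direction. The medians of these cores were -0.57, or -0.71 relative to all genes, in hydrogel and -0.44 in PCL, with no adjusted call by limma. Sdc1, a cell-surface syndecan, rose in TCP against control by 1.16 ± 0.27 (SE) on the log2 scale (limma adjusted p = 0.0406), with 63.4, 50.3 and 71.5 FPKM in the control libraries, 54.9, 62.4 and 30.3 in hydrogel, 67.2, 63.9 and 45.3 in PCL and 109, 154 and 156 in TCP. Against hydrogel 2 were called higher in TCP, Sdc1 by 1.53 ± 0.27 and Sdc4, another syndecan, by 1.31 ± 0.33 (adjusted p = 0.0150 and 0.0458). Of 20 tested genes that degrade glycosaminoglycans, 4 were called higher in TCP against control and 9 against hydrogel, beside 4.78% and 6.13% of all genes in either direction. At the unadjusted p 10 and 12 were higher, beside 18.0% and 34.4%, and limma-voom called 4 and 8. Sgsh, the lysosomal sulfamidase of heparan, had 7.21, 6.16 and 4.95 FPKM in the control libraries, 7.44, 6.79 and 5.04 in hydrogel, 8.96, 10.7 and 12.1 in PCL and 14.4, 17.0 and 18.7 in TCP and rose by 1.32 ± 0.17 against control (adjusted p = 0.00895). Gusb, a lysosomal glucuronidase, had 97.6, 86.9 and 95.2 FPKM in the control libraries, 83.2, 103 and 59.7 in hydrogel, 126, 113 and 92.3 in PCL and 177, 180.0 and 177 in TCP and rose by 0.93 ± 0.18 (adjusted p = 0.0227). Naglu and Galns, lysosomal enzymes of heparan and of keratan and chondroitin sulfate, rose by 0.83 ± 0.19 and 0.87 ± 0.16 (adjusted p = 0.0401 and 0.0212). These 4 were also among those called against hydrogel. For the 4, and for Sdc1, the TCP libraries were above every control library, and with TCP replicates 2 and 3 averaged the calls among the breakdown enzymes, and among the core proteins, numbered 0 against control and 0 against hydrogel. Of the 3 hyaluronan synthases, which make the only unsulfated chain of this family, Has2 alone was tested, with a summed FPKM of the 3 genes of 1.89 to 9.07 in control and 0.923 to 4.14 in the scaffold libraries.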

How the data were processed

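RNA of 12 libraries was measured by RNA sequencing, in 4 groups of 3 taken from the labels. The authors deposited 1 table of FPKM per gene and library. The submitters' processing notes name Trimmomatic, HISAT2, Bowtie, HTSeq, Cufflinks, StringTie and DESeq and the build Rnor_6.0, without versions. The extraction, library kit and sequencer differ between the labels and the study's methods. Another 3 columns of values match no sample label and were not used.

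The test was that of limma 3.58.1 (R 4.3.3), applied to values of log2(FPKM + 1), with all 4 groups in 1 fit, an intensity trend, two-sided moderated tests and Benjamini-Hochberg adjustment over the 12633 genes that had at least 1 FPKM in at least 3 libraries. FPKM values of all 18684 genes above 0 came out as whole fragments (100%, tolerance 0.01), which gave 15035925 to 17357830 fragments per library and the counts used with limma-voom. The precision of low genes is limited by this depth, and the FPKM depend on the gene lengths the authors used. The steps were tested on simulated data. Tables and figures were made in Python 3.11.15 with pandas 2.3.3 and matplotlib 3.10.9.

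Alternatives were a pseudocount of 0.1, no filter, median-of-ratios and quantile scaling, only the 2 groups compared, a replicate block, limma-voom, TCP replicates 2 and 3 averaged, and each library left out. Values in every library are given for 17 members: those called at an adjusted p under 0.05, those past an unadjusted p under 0.05 with a fold over 2 or under 0.5, and the 2 of highest mean FPKM in each role. Other genes of the pathway lists are named where called, or where past that p and fold in at least 2 comparisons with control, and not every gene so chosen is reported here. The members, lists and rules were chosen with earlier results of these data known. Same-numbered libraries were not treated as pairs, since only 4 of 18 pairs of deviations correlated above 0.1.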

Additional observations from a re-analysis of the deposited data

How the results depend on the processing

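The counts of members called at the adjusted p depended on the setting. In PCL against control, 2 calls became 0 with a pseudocount of 0.1, with only the 2 groups fitted, with limma-voom and with TCP replicates 2 and 3 averaged, and 1 with no filter. In TCP against control, 3 became 1 with only the 2 groups and 0 with the pair averaged. In TCP against hydrogel, 5 became 2 with no filter, 15 with only the 2 groups (33.6% of all genes were then called) and 0 with the pair averaged. In TCP against PCL, 1 became 9 with only the 2 groups (17.3% of all genes) and 0 with the pair averaged. With the replicate number as a block, the counts became 0 in PCL against control and 2 in TCP against hydrogel; the numbers do not pair the libraries (correlations -0.612 to 0.469). At the study's threshold, hydrogel against control went from 2 to 4 (pseudocount 0.1, median-of-ratios, quantile scaling and limma-voom), PCL against control from 3 to 5 (pseudocount and limma-voom), PCL against hydrogel from 0 to 1 (the same settings), TCP against control from 2 to 4 (pseudocount) and 5 (limma-voom), TCP against hydrogel from 1 to 3 (pseudocount and limma-voom) and TCP against PCL from 0 to 1 (limma-voom and the pair averaged). The keratan median in hydrogel against control was -0.25 with median-of-ratios and -0.22 with quantile scaling. The cause of these changes was not tested.

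With 1 library left out, adjusted counts ranged from 0 to 1 in hydrogel, 0 to 2 in PCL and 0 to 4 in TCP against control, from 0 to 16 in TCP against hydrogel and from 0 to 3 in TCP against PCL. Every library but TCP replicate 1 lowered the count in PCL against control when left out. Without TCP replicate 2 or 3 the counts in TCP against control and against hydrogel were 0. Leaving out control replicate 3 raised the count against hydrogel to 16 (37.5% of all genes), and control replicate 2 raised it to 10 (15.6%). Leaving out hydrogel replicate 1 or 3 lowered that count to 1 (1.8% and 0.902% of all genes). At the study's threshold the ranges were 1 to 4 in hydrogel and 2 to 4 in TCP against control, 0 to 3 in TCP against hydrogel and 0 to 2 in TCP against PCL. Medians of the chondroitin genes ranged from -0.51 to -0.14 in hydrogel and -0.59 to -0.25 in PCL against control, and from 0.13 to 0.42 in TCP against hydrogel, where the heparan median ranged from 0.28 to 0.58. Keratan medians ranged from -0.14 to 0.0022 in hydrogel and -0.016 to 0.11 in TCP against control, -0.025 to 0.13 in PCL against hydrogel and 0.016 to 0.19 in TCP against PCL. Medians near 0 changed sign with 1 library left out, among them the chondroitin one in PCL against hydrogel (-0.11 to 0.089) and the heparan one in PCL against control (-0.21 to 0.024), and no called member changed sign. The 11 calls of members were lost in 92 of their 220 refits over all alternatives and left-out libraries. Genes of few fragments, such as Chst5, are limited by depth.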
